A study of Mus musculus with 48 samples.

Results

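The 10 genes described here are the receptors of transforming growth factor beta (TGF-beta), the Smad proteins that carry its signal and the repressors of those Smads. They were taken by symbol from the deposited table of raw counts, where all 10 were found among 24062 genes. The genes are Tgfbr1 and Tgfbr2 (the type I and type II signalling receptors), Tgfbr3 and Eng (the coreceptors betaglycan and endoglin), Smad2, Smad3, Smad4 and Smad7, and Ski and Skil. The table holds 48 single cells of mouse fetal liver at embryonic day 14.5, all of 1 group labelled BFU-E, the burst-forming erythroid progenitor. Per the labels, the fetal liver cells were depleted of mature lineages, selected for c-Kit and sorted for the 10% with the lowest CD71. The labels describe a sort on the TGF-beta type III receptor only in the passage on human cord blood, not for the mouse cells. They give no strain, genotype, treatment, animal or chip, so the 48 cells count as 1 sample and no condition is compared.

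TGF-beta binds the type II receptor, which then activates the type I receptor, and betaglycan and endoglin help present the ligand to this pair. The type I receptor phosphorylates Smad2 and Smad3, which join Smad4 and enter the nucleus to regulate target genes. Smad7 blocks the activated receptor, and Ski and Skil (SnoN) bind the Smad complex and recruit corepressors, while in blood formation the pathway is best known for restraining the division of early progenitors.

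Per cell the table holds 246007 to 3211186 counts (median 1915270) and 5180 to 7935 genes with a read, and 1 count was worth 0.287 to 2.43 CPM. Levels below are in CPM, the count divided by the cell's library size after scaling by the trimmed mean of M values (TMM). The 8 markers of the labelled cell type were each read in at least 10 cells. Car2 was read in 48 cells, Kit in 46, Gata2 in 45, Gata1 and Tfrc (CD71) in 44 each, Gfi1b in 40, Klf1 in 31 and Epor in 21. A read is a weak sign, and 10 CPM was reached by Kit in 38 cells, Car2 in 35, Gata2 in 32 and Tfrc in 31. Gata1 reached it in 28, Gfi1b in 23, Klf1 in 16 and Epor in 10. Summed over the 8 markers, the lowest cell had 9.07 CPM. A further 2 cells had summed macrophage marker levels of 25849 and 34503 CPM, against at most 1417 CPM in the other 46. These 2 are called macrophage-like, and they are kept in counts over 48 cells and left out of relations, which use 46. Granulocyte and monocyte markers (Mpo, Elane, Prtn3, Ctsg, Ms4a3 and Cebpe) summed to between 5.29 and 74248 CPM in the 46 cells, so part of the labelled cells carried high levels of myeloid transcripts. Over the 10 genes, the rank correlation of level with total count lay between -0.19 and 0.27, and that with the number of genes read between -0.22 and 0.28.

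Both signalling receptors come back below beside Mpo, the myeloperoxidase gene of early granulocytes and monocytes, so the sequence just before their start sites is shown with that of the coreceptor Eng for comparison. The sequences are RefSeq's for build GRCm38.p6, 250 bases directly before the annotated start, read 5′ to 3′ on the gene's strand. Tgfbr1 lies at chr4:47352972-47353221 on the plus strand, Tgfbr2 at chr9:116175364-116175613 on the minus strand and Eng at chr2:32646345-32646594 on the plus strand. Capitals mark matches on either strand to the Smad-binding letters CAGAC, the Ets-type core GGAAG (the letters that PU.1 and its relatives read) and the GATA letters AGATAA or TGATAA.
Tgfbr1: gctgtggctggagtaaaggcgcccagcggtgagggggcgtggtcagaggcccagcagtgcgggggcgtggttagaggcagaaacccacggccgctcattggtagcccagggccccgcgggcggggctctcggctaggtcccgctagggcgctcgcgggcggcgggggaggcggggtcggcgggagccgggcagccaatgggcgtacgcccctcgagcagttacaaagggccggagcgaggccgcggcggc
Tgfbr2: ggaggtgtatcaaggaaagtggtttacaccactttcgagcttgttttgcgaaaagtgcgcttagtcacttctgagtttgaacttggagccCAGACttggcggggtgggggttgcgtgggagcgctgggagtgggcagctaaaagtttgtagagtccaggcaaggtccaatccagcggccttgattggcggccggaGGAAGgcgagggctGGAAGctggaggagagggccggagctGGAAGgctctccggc
Eng: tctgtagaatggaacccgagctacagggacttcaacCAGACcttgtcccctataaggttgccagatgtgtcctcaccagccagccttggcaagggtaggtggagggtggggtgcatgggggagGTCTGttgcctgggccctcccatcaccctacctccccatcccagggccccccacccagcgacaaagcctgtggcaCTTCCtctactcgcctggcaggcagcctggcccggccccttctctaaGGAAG
The Tgfbr1 stretch, with a GC content of 74.8%, held none of these letters. The Tgfbr2 stretch (58.4% GC) held 1 CAGAC and 3 GGAAG matches, and the Eng stretch (62.4% GC) held 2 of each. None of the 3 held the GATA letters. Over 32851 promoter windows of this length, 16.6% held a GATA match, 42.2% a CAGAC match and 64.1% a GGAAG match. A match is a description of the letters, not of a site in use. Another RefSeq start of Tgfbr1, at chr4:47385966-47386215, held 1 CAGAC and 3 GGAAG matches.

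Of the 10 genes, 9 had a read in at least 10 of the 48 cells, and the exception was Smad7. Over the whole table, 40.3% of the 24062 genes did. At the stricter limit of 10 CPM in at least 10 cells, 6 of the 10 passed (Tgfbr3, Tgfbr1, Smad2, Smad3, Smad4 and Skil), against 26.8% of all genes. Every one of the 10 genes was at 0 in some cells, and the cells that held it differed widely in level, as the heat map of levels by cell shows.

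**Figure D1:**
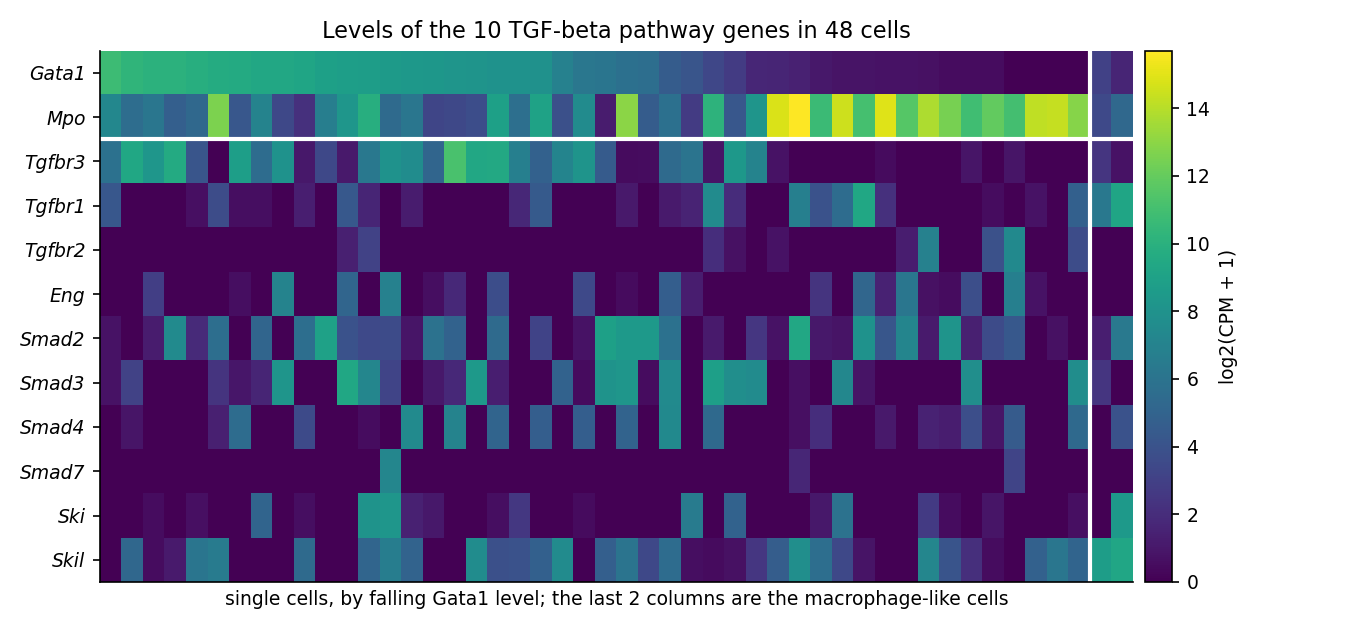
Heat map of log2(CPM + 1) of Gata1, Mpo and the 10 TGF-beta pathway genes (rows) in 48 single cells (columns), ordered by falling Gata1, with the 2 macrophage-like cells last after the white line. Tgfbr3 fills most of the columns with Gata1, the 4 cells with Tgfbr2 at 10 CPM lie on the right among cells with little Gata1, and Smad7 is almost empty.

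Among the receptors, Tgfbr3 (chr5:107106570-107289629, minus strand, GRCm38) had the broadest expression. It ran from 0 over a median of 13.2 to 2335 CPM, with 24 cells at 10 CPM or more and 15 at 100 CPM or more. Its exons overlap those of Gm43422, an uncharacterised gene model on the same strand. A further 12 cells had reads of Tgfbr3 but stayed under 10 CPM. The highest 3 cells held 47.8% of all its CPM, so the mean of 167 ± 381 CPM (SD, n = 48) describes few cells.

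Tgfbr1 (chr4:47353222-47414931, plus strand), the kinase that phosphorylates Smad2 and Smad3, was read in 26 cells but mostly at a trace. Its levels ran from 0 over a median of 0.50 to 646 CPM. Only 12 cells reached 10 CPM, and the median of those 12 was 36.7 CPM. The highest 3 cells, at 646, 599 and 192 CPM, held 79.7% of its CPM, and the cell at 599 CPM was macrophage-like. The other macrophage-like cell had 76.3 CPM, so both of them stood among the cells with Tgfbr1.

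Tgfbr2 (chr9:116084293-116175360, minus strand), the receptor that binds the ligand first, was the rarest of the 4 receptor genes. It was read in 10 cells, or 20.8% with a Clopper-Pearson 95% interval of 10.5 to 34.99% that covers counting error only. In those 10 cells its levels were 174, 116, 13.6, 11.3, 7.70, 3.24, 1.62, 1.42, 0.69 and 0.61 CPM, and the other 38 were at 0. The highest value rested on 211 counts and the lowest on 1 count, so 4 cells carried Tgfbr2 at a level of 10 CPM or more and the rest at a trace. Neither macrophage-like cell had a read of it.

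Eng (chr2:32646595-32682669, plus strand), the coreceptor better known from endothelium, was read in 21 cells and reached 10 CPM in 9. It ran from 0 over a median of 0 to 131 CPM. Its exons overlap those of Fpgs on the opposite strand, and whether reads were counted by strand is not given in the sources used here, so its reads cannot be told apart from those of Fpgs there. Summed endothelial and stromal markers had a median of 0 CPM in the 46 cells and reached 363 CPM in a cell without Gata1, and 637 CPM in a macrophage-like cell. The stromal Col1a1 and Col3a1 were at 0 in all cells, and the endothelial Pecam1 and Tek were read in 8 cells each, Cdh5 in 6 and Kdr in 2. Their part in the reads of Eng was not tested.

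Among the Smads that the receptor activates, Smad2 was read in 38 cells, the most of the 10 genes, and Smad3 (chr9:63646767-63757994, minus strand) in 28. Smad2 ran from 0 over a median of 6.16 to 677 CPM, with 23 cells at 10 CPM. Smad3 ran from 0 over a median of 0.73 to 660 CPM, with 14 cells at 10 CPM. Those 14 cells were set apart from the rest: 13 of them reached 100 CPM and their median was 214 CPM, whereas only 9 of the 23 cells with Smad2 reached 100 CPM. At 10 CPM, 5 cells held both paralogs, 18 held Smad2 only, 9 held Smad3 only and 16 held neither. Counting any read, 21 cells held both, 17 Smad2 only and 7 Smad3 only, and the rho between them was -0.07 in the 46 cells. Of the 32 cells with either, Smad2 was higher per kilobase of exon in 18 and Smad3 in 14.

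Smad4, the partner that both activated Smads need, was read in 23 cells. Its levels ran from 0 over a median of 0 to 181 CPM, with 14 cells at 10 CPM and a median of 31.9 CPM among them. Inhibitory Smad7, which TGF-beta itself is known to induce, was read in 3 cells only, at 146, 8.27 and 2.26 CPM. Those values rest on 214, 10 and 4 counts. The cell at 146 CPM also had Ski at 299 CPM, Tgfbr3 at 256 CPM, Eng at 118 CPM and Skil at 102 CPM, and it had no read of Tgfbr1, Tgfbr2 or Smad4.

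The repressors differed from each other. Skil (chr3:31095058-31122577, plus strand) reached 10 CPM in 25 cells, the most of the 10 genes, and ran from 0 over a median of 13.8 to 637 CPM. Its highest 2 values, 637 and 436 CPM, were those of the 2 macrophage-like cells. Without them the highest cell had 216 CPM, and the mean fell from 55.7 ± 116 CPM (SD, n = 48) to 34.8 ± 54.7 CPM (SD, n = 46). Ski (chr4:155154075-155222592, minus strand) reached 10 CPM in only 7 cells, and it ran from 0 over a median of 0 to 367 CPM. Its highest value was that of a macrophage-like cell too. At 10 CPM, 3 cells had both repressors, 22 had Skil only, 4 had Ski only and 19 had neither.

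Levels of different genes can be set side by side only per length, here as CPM per kilobase of exon. On that scale Tgfbr3 had the highest mean, 25.5 ± 58.2 (SD, n = 48), followed by Smad3 at 13.96 ± 26.2, Smad2 at 8.90 ± 17.7, Tgfbr1 at 5.75 ± 19.6 and Skil at 5.74 ± 12.01. Smad4 at 4.47 ± 10.9, Ski at 4.37 ± 13.9, Eng at 2.97 ± 7.60, Tgfbr2 at 0.841 ± 3.65 and Smad7 at 0.723 ± 4.67 came last. No neighbours in this order differed by more than their spread over cells. A single cell carried much of some means: without its highest cell, Tgfbr1 had a mean of 3.77, Tgfbr2 of 0.406 and Smad7 of 0.0495 CPM per kilobase. By the median the order was different, with Tgfbr3 at 2.01, Skil at 1.43 and Smad2 at 0.701 CPM per kilobase in front and Smad4, Ski, Eng, Tgfbr2 and Smad7 all at 0.

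**Figure D2:**
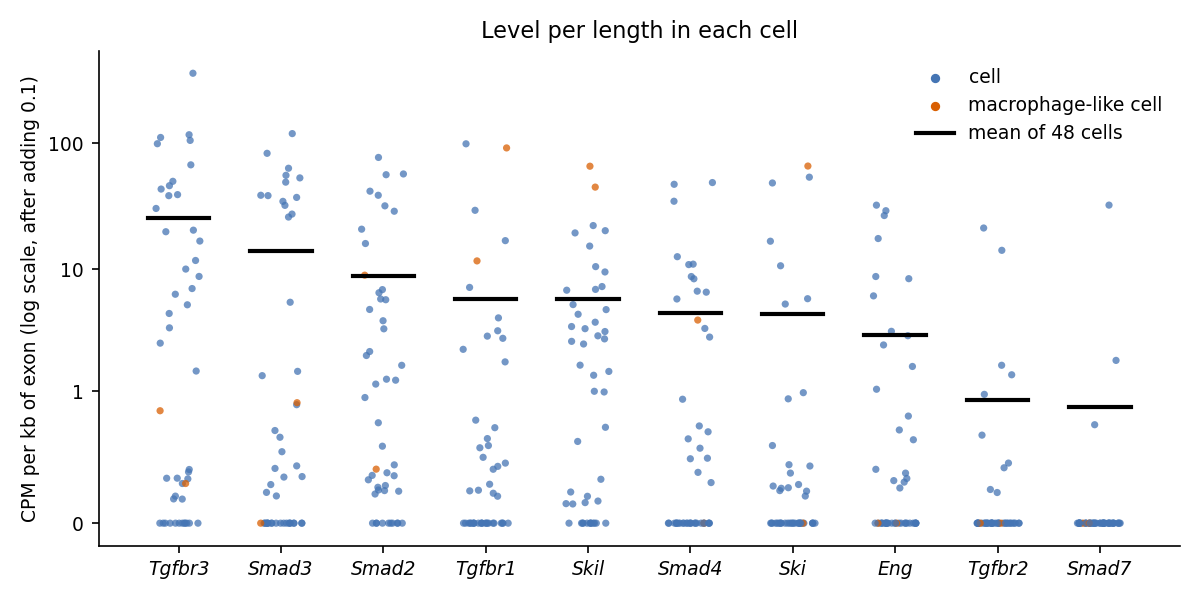
Level of each gene in each of 48 cells in CPM per kilobase of exon, on a log axis after adding 0.1, with orange points for the 2 macrophage-like cells and a bar for the mean. Each gene spreads from 0 to more than 20 CPM per kilobase, and the mean of Tgfbr3 is 25.5 against 0.723 for Smad7.

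No cell held all 10 genes. At 10 CPM, a cell held between 1 and 6 of the 10 genes (median 3), with 16 cells holding 2 and 14 holding 3. With 1 read as the limit a cell held 2 to 8 (median 5). For the signalling pair, 1 cell had both Tgfbr1 and Tgfbr2 at 10 CPM, 11 had Tgfbr1 only, 3 had Tgfbr2 only and 33 had neither. Tgfbr1 was thus at 10 CPM in 25% of the 4 cells with Tgfbr2 and in 25% of the 44 without. Counting any read, 6 cells had both and 18 had neither.

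Downstream of the signalling receptors, Smad2, Smad3 and Smad4 were each at 10 CPM in more cells than Tgfbr1 or Tgfbr2. The counts below also accept either Smad2 or Smad3. At 10 CPM, 32 cells had Smad2 or Smad3, and 10 had Smad2 or Smad3 together with Smad4. Smad4 and either of the pair stood beside Tgfbr1 in 3 cells, of which 1 was macrophage-like, with Tgfbr1 at 599, Smad2 at 78.9 and Smad4 at 14.5 CPM. They stood beside both signalling receptors in 1 cell, not a macrophage-like one. That cell had Tgfbr1 at 26.6, Tgfbr2 at 11.3, Smad3 at 206, Smad4 at 40.8 and Skil at 32.3 CPM, with no read of Tgfbr3, Smad2 or Gata1 and Mpo at 7473 CPM. Counting any read, 4 cells held the whole chain. A transcript without a read in 1 cell can still be present, since a count of 0 allows up to 3 counts by counting error alone. Neither that limit nor the thinning below covers transcripts lost before sequencing, so a 0 may say less than they imply. If every cell were thinned to the lowest total of 246007 counts, Tgfbr1 would be read in 16.8 cells and Tgfbr2 in 6.32, against 26 and 10 at full depth.

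**Figure D3:**
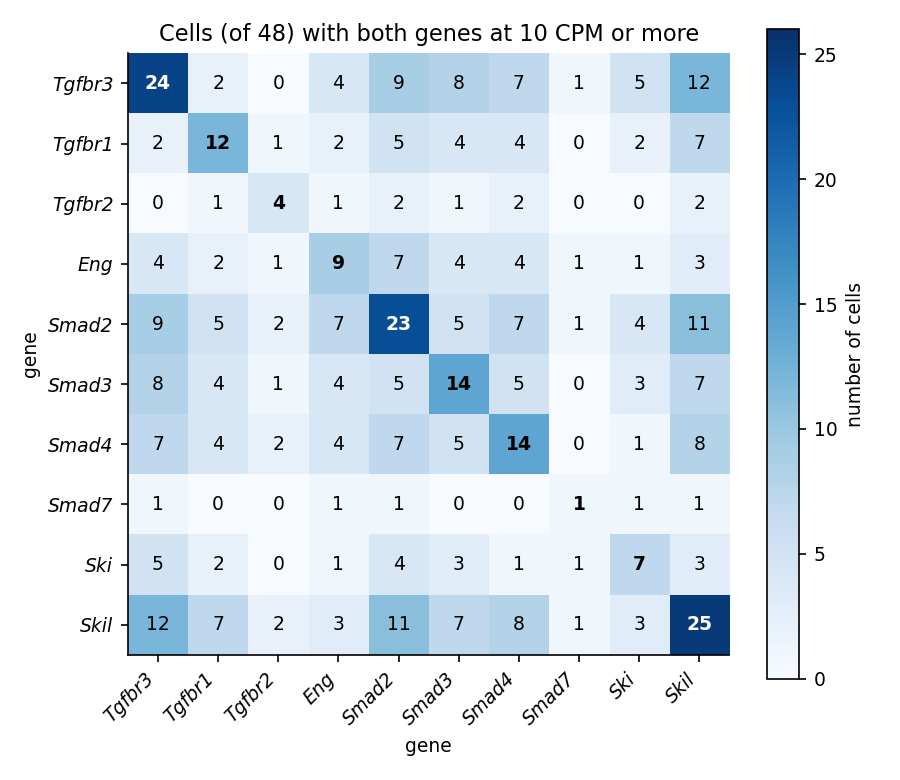
Number of the 48 cells in which both the gene of the line and the gene of the column reached 10 CPM, with the cells of each gene alone in bold on the diagonal. Tgfbr3 and Skil share the most cells (12), Tgfbr3 shares 2 with Tgfbr1 and 0 with Tgfbr2, and 6 of the 45 pairs share none. Each of these 6 includes Tgfbr2 or Smad7, which reached 10 CPM in 4 cells and 1 cell.

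At 10 CPM, few cells held the coreceptor Tgfbr3 together with a signalling receptor. Tgfbr1 was itself at 10 CPM in 10 of the 46 cells and Tgfbr2 in 4, and no share over all genes is given for such an overlap. Of the 46 cells, 24 had Tgfbr3 at 10 CPM, and 2 of these (8.33%) had Tgfbr1 at that level, against 8 of the 22 cells under 10 CPM of Tgfbr3 (36.4%). Tgfbr2 reached 10 CPM in 0 of the 24, which allows a share of up to 12.5% by the rule that a count of 0 allows up to 3, and in 4 of the 22 (18.2%). Reads of Tgfbr1 at any level were less unequal, with 11 of the 24 cells and 13 of the 22. Gata1 divided along the same line, at 10 CPM in 22 of the 24 and 6 of the 22. Mpo divided the other way, with a median of 45.5 CPM in the 24 and 4797 CPM in the 22. A difference by Tgfbr3 was thus not told apart here from one by Gata1 or by Mpo.

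The other genes except Smad7 had cells on both sides of Tgfbr3. Smad2 reached 10 CPM in 9 of the 24 cells with Tgfbr3 and in 13 of the 22 without. For Smad3 the numbers were 8 and 6, for Smad4 7 and 6, for Skil 12 and 11, for Eng 4 and 5, for Ski 5 and 1, and for Smad7 1 and 0. Over the 45 pairs of the 10 genes in 46 cells, Spearman's rho ran from -0.35 to 0.24 with a median of 0.02. None reached 0.3, and 2 were at -0.3 or lower, Tgfbr3 with Tgfbr1 (-0.35) and Eng with Skil (-0.32). All cells share a library chemistry and differ in depth, and correlations across them are given as descriptions without a test.

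Gata1, the transcription factor that drives erythroid and megakaryocyte genes, and Mpo ran against each other in the 46 cells, with a rho of -0.61. Tgfbr3 had a rho of 0.66 with Gata1 and -0.73 with Mpo (Pearson's r of log2 values 0.67 and -0.72). Among 8481 genes read in at least 10 cells with a mean of 5 CPM, this placed it at the 99.95th percentile for Gata1 and at the 0.012th for Mpo. Tgfbr2 had the opposite signs, with -0.37 for Gata1 and 0.33 for Mpo. Tgfbr1 had 0.30 with Mpo, just past the limit of 0.3, and -0.07 with Gata1. Its relation to Mpo was 0.21 when the macrophage-like cells, which have Tgfbr1 and little Mpo, were kept in.

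With 0.3 as the limit in either direction, 1 of the 10 genes was counted as positive with Gata1 (Tgfbr3), against 5.73% of the 8481 genes, and 1 as negative (Tgfbr2), against 5.49%. For Mpo, 2 were positive (Tgfbr1 and Tgfbr2), against 7.58%, and 1 was negative (Tgfbr3), against 5.21%. The genes counted were Tgfbr1, Tgfbr2 and Tgfbr3, and Tgfbr1 with Mpo fell under 0.3 in some alternatives given below. For 10 genes, counts of 1 or 2 lie near these shares, so they are not read as a trait of the receptors. The Smads and repressors, and Eng, lay between -0.17 and 0.13 for Gata1 and between -0.20 and 0.19 for Mpo. The median over the 10 genes was -0.08 for Gata1 and 0.12 for Mpo, beside 0.02 and 0.00 over all 8481. Smad7, with reads in 3 cells, did not pass the filter on low values, and the other 9 did.

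**Figure D4:**
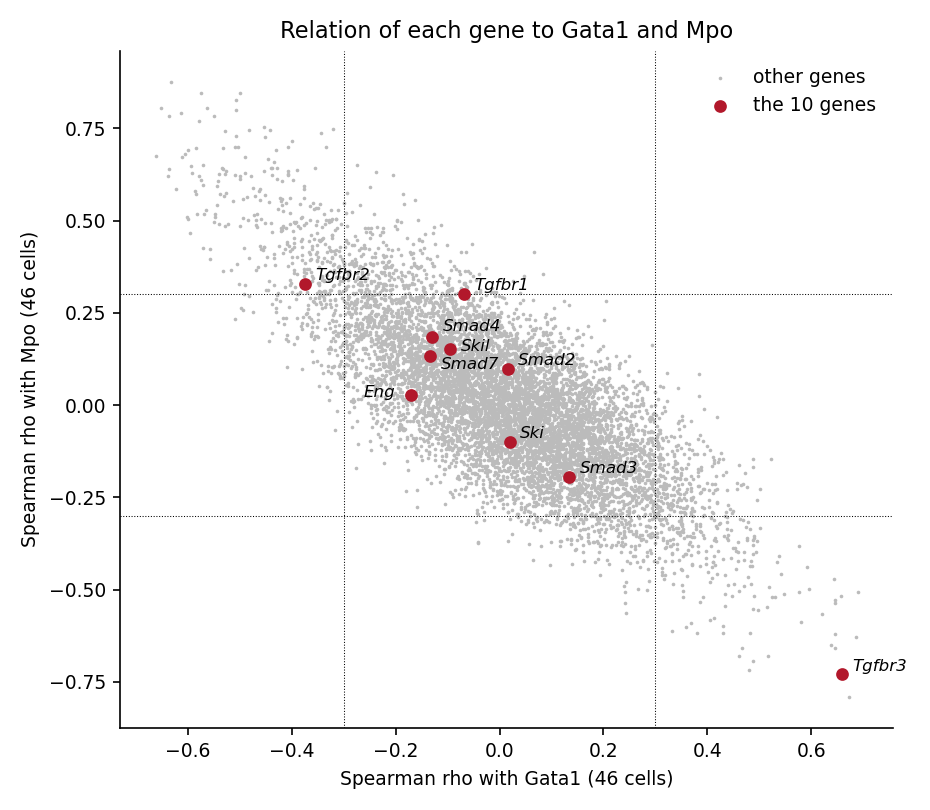
Spearman's rho of each gene with Gata1 (horizontal) and with Mpo (vertical) over 46 cells, for 8481 genes in grey and the 10 TGF-beta pathway genes in red, with dotted lines at 0.3 and -0.3. Tgfbr3 lies at 0.66 and -0.73, at the lower right edge of all genes, Tgfbr2 lies at -0.37 and 0.33, and the Smads lie within the grey cloud near the centre.

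Among the cells with Gata1 the relations of Tgfbr3 were smaller. Within the 28 cells at 10 CPM of Gata1, Tgfbr3 had a rho of 0.17 with Gata1 and -0.20 with Mpo. Tgfbr2, read in 2 of those cells, had 0.07 with Gata1 and 0.34 with Mpo. Tgfbr1 had 0.44 with Mpo there, and Smad4 had 0.31. No share over all genes is given for these 28 cells, so the values are descriptions only.

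The 46 cells were then divided by their own transcripts, at 10 CPM of Gata1 and 100 CPM of Mpo, into sets that are not conditions. This gave 18 cells with Gata1 without Mpo, 10 with both, 17 with Mpo without Gata1 and 1 with neither. Tgfbr3 was at 10 CPM in 16 of the 18 cells (88.9%), in 6 of the 10 (60.0%) and in 1 of the 17 (5.88%). Its median was 167 CPM in the first set, 37.5 CPM in the second and 0 in the cells with Mpo only. The cells with both Gata1 and Mpo thus lay between the others in share and in median, though their range, 0 to 726 CPM, overlapped both.

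In the 46 cells, Tgfbr1 at 10 CPM stood only beside Mpo. It reached 10 CPM in 0 of the 18 cells with Gata1 without Mpo, which allows up to 16.7%, in 4 of the 10 cells with both and in 6 of the 17 with Mpo only. All 10 cells with Tgfbr1 at that level were thus among the 27 with Mpo at 100 CPM. The 19 cells without such Mpo ran from 0 to 3.05 CPM of Tgfbr1, and 8 of them had a read. The highest cell had 20.9 CPM among the 10 with both and 646 CPM among the 17 with Mpo only. At 1000 CPM of Mpo as the limit, which 18 of the 46 cells reached, 7 of the 10 cells with Tgfbr1 had it. The share with Tgfbr1 was then higher by 28.2 points in cells with such Mpo. No share over all genes is given at that limit.

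Tgfbr2 was at 10 CPM in 4 of the 17 cells with Mpo only and in 0 of the 28 with Gata1, which allows up to 10.7%. In its 4 cells Gata1 was at 0.601 CPM or lower, Tgfbr3 at 0.827 CPM or lower and Mpo between 2077 and 14225 CPM. Summed markers of other cells were also set side by side. The 6 granulocyte and monocyte markers, of which 5 were read in at least 10 cells and none was at 0 throughout, include Mpo itself. Mpo had a mean of 4940 CPM over 48 cells, against 485 CPM for Elane, the next highest. Of the 18 cells without Gata1, 17 had Mpo at 100 CPM, so the sum largely repeats the Mpo level. It was 18.9 to 74248 CPM in the cells without Gata1 (median 6381) and 5.29 to 8334 CPM in those with it (median 75.8). The 10 macrophage markers, 9 of them read in at least 10 cells, summed to 0 to 230 CPM without Gata1 (median 21.4) and to 0 to 1417 CPM with it (median 1.69), so the highest sum and the higher median lay on different sides. The 6 megakaryocyte markers, 4 of them read in at least 10 cells, summed to 0 to 245 CPM without Gata1 (median 0.20). With Gata1 that sum was 0 to 545 CPM (median 4.27). The cells without Gata1 were sequenced to a median of 1659080 counts and those with it to 2074380. The part of these in the receptor differences was not tested.

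Skil, Smad2, Smad3, Smad4, Eng and Ski were found in all 3 larger sets. Skil was at 10 CPM in 10 of the 18, 5 of the 10 and 8 of the 17 cells, and Smad3 in 5, 3 and 5. Smad2 was in 8, 7 and 7, Smad4 in 5, 4 and 4, Eng in 3, 2 and 4, and Ski in 2, 2 and 1. Smad7 was at 10 CPM in 1 of the 18 cells and in none of the 10 or the 17. Smad2 had a read in 25 of the 27 cells with Mpo and in 11 of the 19 without, a wider gap than at 10 CPM (14 and 8). At 10 CPM its difference was 9.75 points, and its rho with Mpo was 0.10. No share over all genes is given for the gap in reads.

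**Figure D5:**
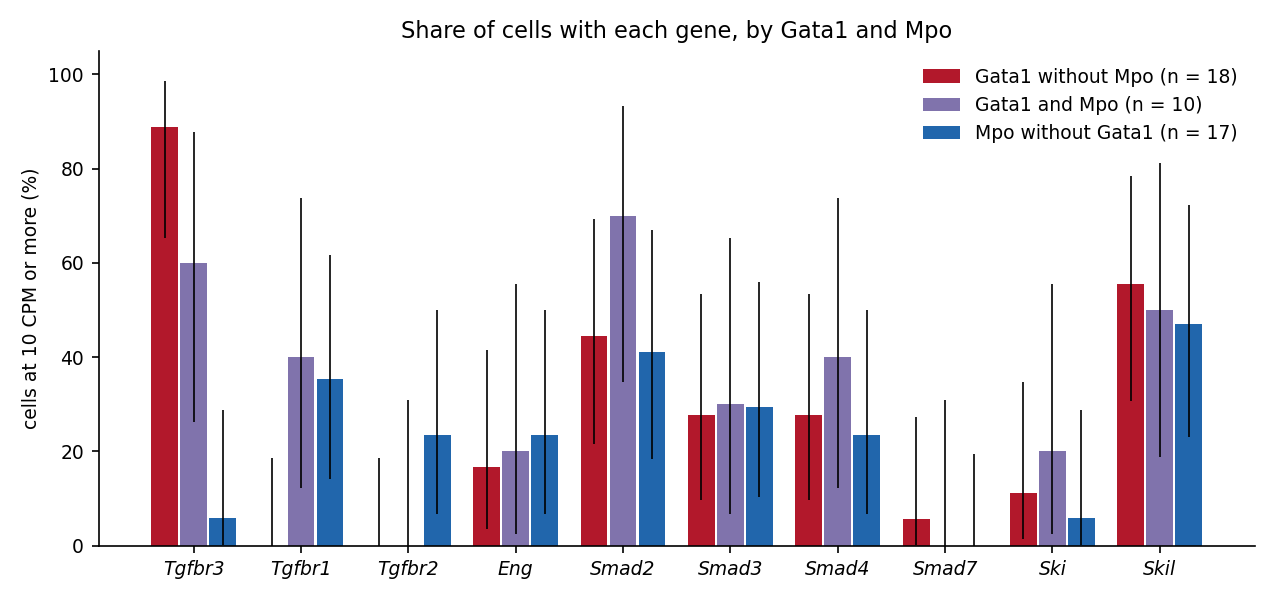
Percent of cells at 10 CPM or more for each of the 10 genes in cells with Gata1 without Mpo (18), with both (10) and with Mpo without Gata1 (17), with Clopper-Pearson 95% intervals as lines that cover counting error only (for 0 of 18 cells their upper end is 18.5%, against 16.7% by the rule of 3 counts). The share of Tgfbr3 steps from 88.9% over 60.0% to 5.88%, Tgfbr1 is at 0 in the first set and Tgfbr2 appears in the last only. Only the intervals of Tgfbr3 in the first and last sets lie apart. Those of every other gene, Tgfbr1 and Tgfbr2 included, overlap across the sets.

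As a difference between cells with and without Gata1, 1 of the 10 genes was higher by 25 percentage points or more (Tgfbr3, by 67.5 points), against 5.72% of 8481 genes, and 0 were lower, against 5.12%. The differences of Tgfbr2 (-22.2 points) and Tgfbr1 (-19.05 points) stayed under that limit. Between cells with and without Mpo, 1 gene was higher (Tgfbr1, by 37.04 points), against 4.62%, and 1 was lower (Tgfbr3, a difference of -63.5 points), against 4.19%. No other of the 10 differed by more than 14.8 points with Mpo.

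Around these 10 genes, 65 others of the TGF-beta family and its partners were looked up in 7 lists, and 35 of them had a read in at least 10 cells. Over all 24062 genes that share was 40.3%, and the counts per list below stand beside it. Of 8481 genes, 5.73% had a rho of 0.3 or more with Gata1 and 5.49% of -0.3 or less. With Mpo these were 7.58% and 5.21%. The ligands were nearly absent: Tgfb1 was read in 7 cells, Tgfb3 in 1 and Tgfb2 in 0. Of 11 genes that bind or activate the latent ligand, 6 were read in at least 10 cells. Nrros, which tethers latent TGF-beta on myeloid cells, had a mean of 375 ± 840 CPM (SD, n = 48), with 34 cells at 10 CPM and a rho of 0.48 with Mpo. Ltbp1, which binds the latent ligand in the matrix, was at 10 CPM in 13 cells and ran with Tgfbr3 (rho 0.56), with Gata1 (0.45) and against Mpo (-0.52). Furin, the protease that cuts the precursor, had -0.32 with Gata1. The binding proteins Ltbp2 and Ltbp3 had no read.

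Receptors of activin and BMP, the related ligands, were mostly missing too. Of 9 such genes only Bmpr2 was read in at least 10 cells, in 35, with 14 cells at 10 CPM. The type I receptors Acvr1, Acvr1b and Bmpr1a reached 10 CPM in 1 cell each, and Acvr1c, Acvrl1 and Bmpr1b had no read. Of the BMP-arm and inhibitory Smads, Smad5 was at 10 CPM in 17 cells, with -0.39 for Gata1 and 0.36 for Mpo. Smad1 reached 10 CPM in 5 cells and Smad9 in 1, and inhibitory Smad6 was read in 3 and reached 10 CPM in none.

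Regulators and cofactors were the best filled lists. Of 13 regulators of the receptors and Smads, 10 were read in at least 10 cells. Fkbp1a, which holds the type I receptor inactive, was at 10 CPM in 43 cells, the deubiquitinase Usp9x in 37 and the receptor-binding Strap in 35. With Gata1, Usp15 and the Smad4 ligase Trim33 each had 0.33 and Rnf111 and Usp9x each -0.34, so members of 1 list ran both ways. Usp9x had 0.30 and the ligase Nedd4l 0.37 with Mpo. Smurf1, a ligase for the receptors, and Zfyve9, which brings Smads to the receptor, had no read.

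Of 11 corepressors and cofactors, 9 were read in at least 10 cells. Ncor1, a corepressor that Ski binds, reached 10 CPM in 46 cells, the deacetylase Hdac1 in 43 and Snw1 in 42. Runx1, a Smad partner in blood formation, had -0.40 with Gata1 and 0.44 with Mpo. Of 16 target genes, 8 were read in at least 10 cells. Myc, which TGF-beta is known to repress, was at 10 CPM in 45 cells and had 0.48 with Mpo, and Klf10, an early induced target, was at 10 CPM in 18. Cdkn1a, the cell cycle inhibitor p21, had -0.31 with Gata1 and 0.42 with Mpo, and Id1 had 0.50 with Mpo. The targets Cdkn2b and Ctgf had no read in any cell and Pmepa1 had a read in 1.

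The genes whose levels ran most like each of the 6 better detected genes were taken as those with the highest Spearman's rho over 46 cells and 8481 genes. For Tgfbr3 these were Gm15915, a predicted gene (0.77), F2r, the thrombin receptor (0.71), Gata1 (0.66), Mfsd2b, a lipid transporter of red cells and platelets (0.63), and Ptrf, a coat protein of caveolae (0.63). Of the 24 cells with Tgfbr3 at 10 CPM, 22 had Gm15915 at that level and 22 had F2r. Over the 46 cells Gm15915 reached it in 26 and F2r in 24. Both were chosen for their rho with Tgfbr3, so a high overlap follows from the choice. For Tgfbr1 the first were the zinc finger gene Casz1 (0.54), Dach1 (0.50) and the cell cycle kinase Cdk4 (0.49).

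For the Smads and Skil the nearest genes were other genes, and their rho stayed under 0.6. Smad2 was nearest to Pole4, a subunit of a DNA polymerase (0.51), Dut (0.48) and Tgds (0.46), and Smad3 to Nampt, Slc35c1 and Cenpm (0.49, 0.48 and 0.48). Smad4 was nearest to Ctnnbl1 (0.57), Cep68 (0.50) and Spi1, the gene of PU.1 (0.50). Skil was nearest to the ubiquitin-conjugating enzyme gene Ube2a (0.59), Rnf167 (0.53) and Nfyb (0.49). These are the highest of 8481 values each, chosen for their size, and they are given as a description.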

How the data were processed

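RNA of 48 single cells was made into full-length cDNA on a microfluidic chip without molecular identifiers, per the labels' protocols. Per the submitters' processing notes, TopHat2 2.0.12, featureCounts 1.4.6 (Subread) and mm10 were used. Annotation and strand setting are not given in the sources used here. The deposited table holds raw whole-number counts per gene (246007 to 3211186 per cell). The authors' deposited log2 table equals log2 of the count over a DESeq size factor, plus 1. Its values served as an alternative. Columns are run codes matching no sample title, so the cells were 1 sample and no test was made.

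CPM used TMM factors (edgeR 4.0.16, R 4.3.3; 0.419 to 1.70). Exon lengths and positions are from GENCODE for GRCm38. Statistics used Python 3.11.15, numpy 2.4.6, scipy 1.17.1 and pandas 2.3.3, and figures matplotlib 3.10.9. Macrophage-like cells had 1000 CPM or more of C1qa, C1qb and C1qc summed. The relation step was tested on simulated data. Promoters were matched for 5 of the 10 genes, in 6 entries. Tgfbr3 and Skil are not among them.

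Named were the 10 genes, list genes reaching 10 CPM in most cells (3 per list) or counted in a relation, and the 5 genes most like Tgfbr3 and 3 most like each other gene at 10 CPM in 10 cells. Other list genes, mostly those with no or few reads, were named after their values were seen. The members and lists were chosen with earlier results of these data known. Intervals and limits cover counting error only. Alternatives were other limits, normalizations and pseudocounts, thinning, leaving out cells, and the number of genes read as covariate.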

Additional observations from a re-analysis of the deposited data

How the results depend on the processing

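Of 160 alternative values of the relations of the 10 genes to Gata1 and Mpo, 151 kept their side of 0.3. Of these 151, 24 changed sign, all of relations between -0.20 and 0.20 at first. Of the 30 alternative numbers of cells at 10 CPM, 29 stayed within 1.5 times, and Smad7 went from 1 cell to 2 with plain CPM. With 100 CPM as the limit, 2 in place of 9 genes were found in at least 10 cells, and 0 cells had both signalling receptors, against 1 at 10 CPM and 6 with 1 read, as a higher limit keeps fewer cells. Ordered by the median per kilobase, 3 of the 10 genes kept their rank: Tgfbr3, Smad2 and Eng. Eng is among the 5 genes tied at a median of 0, so its rank of 8 is only the average of the tie. Smad3 went from rank 2 to 4, Tgfbr1 from 4 to 5 and Skil from 5 to 2, with medians above 0. Only in cells with 10 CPM of Gata1, 0 in place of 2 genes related to Gata1 at 0.3, and Tgfbr2 reversed from -0.37 to 0.068; that setting leaves 28 cells and 2 with a read of Tgfbr2. Tgfbr1 with Mpo was 0.296 with plain CPM, 0.290 with the authors' values and 0.292 given the number of genes read, all under 0.3, and Tgfbr2 with Mpo was 0.28 with a pseudocount of 10. The cause was not tested. Chosen after seeing the data were the numbers of cells with Tgfbr3 and Tgfbr1 (2 at 10 CPM, 16 with 1 read and 0 at 100 CPM, of 46) and with Tgfbr1 and Mpo (10, and 9 without the 5 cells of lowest total). In the cell where it weighs most, 1 count is 2.43 CPM, so traces under that cannot be seen in every cell.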
